A study of Mus musculus with 8 samples.

Results

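The genes of the Wnt pathway's ligands, receptors and antagonists were followed in cardiac mesenchymal stromal cells (cMSCs) of aged and young mice. They were taken by name from the array: the Wnt ligands, the Frizzled receptors, the co-receptors Lrp5, Lrp6, Ror1 and Ror2, the R-spondins with their Lgr receptors, the secreted antagonists of the Sfrp and Dkk families with Wif1, and a few intracellular components (Axin1, Axin2, Ctnnb1, Lef1, Tcf7, Nkd1 and Nkd2). This gave 56 genes with 88 probes, among 37325 gene names and 56605 probes on the array. cMSCs are stromal cells of the heart, sorted by flow cytometry from digested hearts as CD45- CD31- Sca-1+ PDGFRα+ cells and lysed without culture. There were 4 aged pools, from mice of 20 months, and 4 young pools, from mice of 5 months. All mice were C57Bl/6, untreated, and 3 mice were stated for each pool, although the code of aged pool 4 can also be read as fewer animals. The study's methods name male C57Bl/6JRj mice from a supplier and a heterozygous Cx3cr1 reporter line with the CD45.1 allele, whose sex is not separately stated. They do not say which gave the pools on the arrays.

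Wnt proteins are secreted lipid-modified ligands that bind Frizzled receptors. With Lrp5 or Lrp6 as co-receptor they stop the destruction of beta-catenin, which then acts with Tcf and Lef factors on target genes, and through Ror and other receptors they act on cell polarity and movement without beta-catenin. R-spondins, bound by Lgr receptors, keep Frizzled and Lrp proteins on the cell surface, whereas Sfrp proteins and Wif1 bind Wnts outside the cell and Dkk1 blocks Lrp5 and Lrp6. In the heart this pathway is known for its part in development, in the response of stromal cells to injury and in fibrosis.

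RNA of each pool was labelled with Cy3 and hybridised to a one-colour array, and all values below are normalised signals, the log2 of a probe's processed intensity minus the log2 of its array's 75th percentile, so that 0 is that percentile and a difference of 1 is a doubling. The 75th percentile lay between 501 and 778 intensity units on aged arrays and between 472 and 801 on young arrays, 58.0% to 61.8% of spots were well above background on aged arrays and 57.7% to 63.3% on young arrays, and no spot was saturated. The arrays lay in 2 rows of 1 slide, with 2 aged and 2 young pools in each row. Correlations between arrays ran from 0.981 to 0.995. Pdgfra and Ly6a, which encode the markers selected for, were well above background on all arrays. So were Ptprc (CD45, mean 1.46 in aged and 1.39 in young pools) and Pecam1 (CD31, -2.29 and -2.32), which encode the markers sorted against. Pdgfra differed by -0.20 (limma with Benjamini-Hochberg adjustment, adjusted p = 0.353) and Ly6a, which encodes Sca-1, rose by 0.67 (adjusted p = 0.049). Thy1, which encodes CD90 and was not a marker of this sort, fell by 0.71 (limma adjusted p = 0.049). With RNA of sorted pools, a change in the share of a cell type and a change in RNA per cell cannot be told apart.

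Rspo1 had the largest difference of the set and rose in the aged pools, together with Sfrp1 and Nkd2, while Wnt5a and Wnt4 fell. A probe was kept where Feature Extraction placed it clearly over the local background in every one of the 4 pools of an age group, a gene was tested with its brightest kept probe, and 36 of the 56 genes were tested among 20226 genes. At an adjusted p under 0.05 (limma with Benjamini-Hochberg adjustment over all genes tested), 3 of the 36 rose and 2 fell, or 13.9%. Over all genes tested, 2.46% rose, 0.791% fell and 3.25% passed in either direction. At an unadjusted p under 0.05 the count was 9 of 36, against 14.1% of all genes. The median log2 fold change of the 36 genes was 0.06, against 0.0056 for all genes tested, with 24 values above 0 and 12 below. The SE of a fold change was 0.08 to 0.29. With no filter on dim probes, where 37325 genes entered the adjustment, Rspo1 kept its call (adjusted p = 0.0226) and the other 4 genes did not (0.0754 to 0.167). All 4 aged pools lay above all young pools for 4 of the 36 genes, against 6.85% of all genes tested, and below them for 2 of the 36, against 3.85%.

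**Figure D1:**
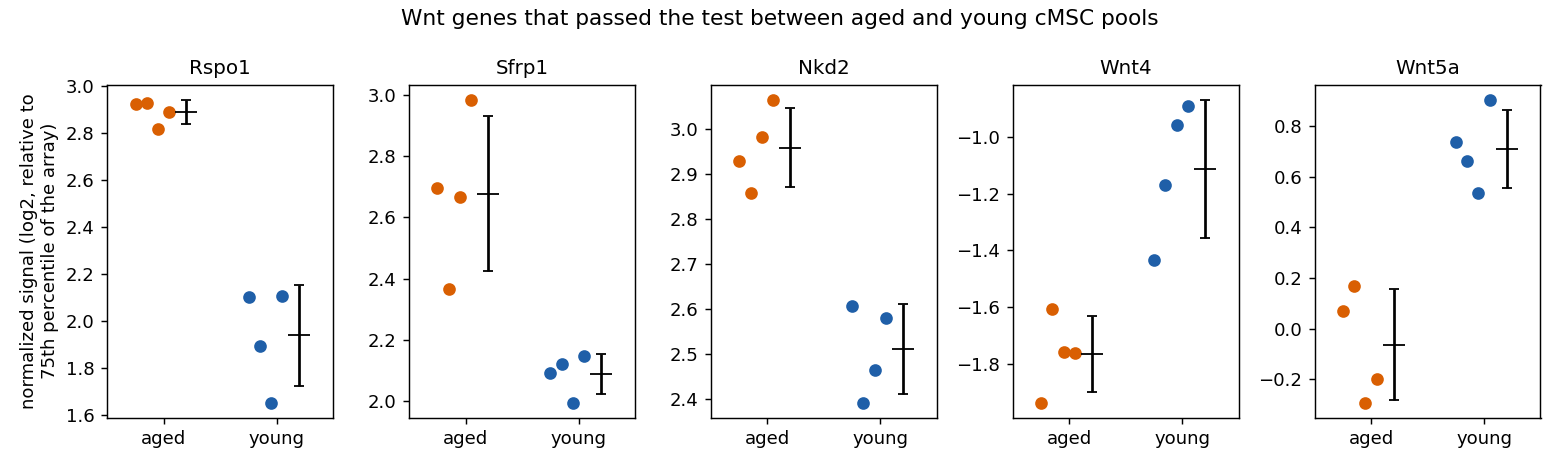
Normalised signal (log2 scale, 0 at each array's 75th percentile) of the 5 Wnt genes that passed the test, in 4 aged pools (orange) and 4 young pools (blue). Points are pools and bars are mean ± SD. In each panel the aged and young pools do not overlap, with aged pools higher for Rspo1, Sfrp1 and Nkd2 and lower for Wnt4 and Wnt5a.

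Among 19 Wnt ligands, 10 were tested, 2 fell and none rose. Wnt5a, a ligand best known for signalling that does not use beta-catenin, fell in the aged pools. Its signal was 0.07, 0.17, -0.29 and -0.20 in aged pools 1, 2, 3 and 4, against 0.74, 0.66, 0.54 and 0.90 in young pools 2, 3, 4 and 5. Every aged pool lay below every young pool, and the aged pools were split between values just above and just below the 75th percentile. The mean was -0.06 ± 0.22 in aged pools and 0.71 ± 0.15 in young pools (SD, n = 4 each), a log2 fold change of -0.77 (SE 0.13, 95% interval -1.06 to -0.48, limma adjusted p = 0.0162), or a level 1.71-fold higher in young pools. The call held when any single pool was left out, with adjusted p values of 0.0185 to 0.0492, and was lost with no filter on dim probes (0.0754), and the difference was -0.85 in row 1 of the slide and -0.70 in row 2.

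Wnt5a was read by 3 probes at separate positions of the gene on mm9, at chr14:29336664-29336723 (the probe tested), chr14:29340427-29340486 and chr14:29331746-29335708. The first and second of these were well above background on all 8 arrays, with log2 fold changes of -0.77 and -0.85, and on both all aged pools were below all young pools. The last of these probes has 60 bases over a genomic span of 3963 bases, so that it reads a splice junction. It is shown because it reports the spliced Wnt5a transcript, with no part set in capitals.
Wnt5a: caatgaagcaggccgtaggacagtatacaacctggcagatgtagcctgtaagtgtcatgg
This junction probe was dim. It was well above background on all 4 young arrays but on 1 aged array, so that it was kept through the young group and its difference adds no support to the other probes. It gave -5.06, -5.01, -5.92 and -4.87 in the aged pools, against -4.44, -4.47, -4.38 and -4.29 in the young pools.

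Wnt4, a ligand known from kidney and female reproductive tract development, also fell. Its signal was -1.94, -1.61, -1.76 and -1.76 in aged pools 1, 2, 3 and 4, against -1.43, -1.17, -0.96 and -0.89 in young pools 2, 3, 4 and 5. The groups did not overlap, and young pool 2 lay closest to the aged pools. The mean was -1.77 ± 0.13 in aged pools and -1.11 ± 0.24 in young pools (SD, n = 4 each), with a log2 fold change of -0.65 (SE 0.13, 95% interval -0.95 to -0.35, limma adjusted p = 0.0365). The gene had 1 probe, at chr4:136855342-136855401 on mm9. The difference was -0.82 in row 1 of the slide and -0.49 in row 2. The adjusted p was 0.0568 with the row as a block and 0.0540 with scaling to the median, and it rose to between 0.0515 and 0.101 when any pool other than young pool 2 was left out.

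The other 8 tested ligands did not pass the test. Wnt10b, a ligand of the beta-catenin branch that restrains fat cell formation, had a log2 fold change of 0.36 (SE 0.14, limma adjusted p = 0.293), and its second probe was above background on 4 aged and 3 young arrays. Wnt2 and Wnt11, both known from heart development, had values of -0.22 (SE 0.29) and -0.05 (SE 0.20). Wnt5b, the close relative of Wnt5a, had 0.11 (SE 0.08, 95% interval -0.07 to 0.29), and Wnt6, Wnt7b, Wnt9a and Wnt1 lay between -0.13 and 0.12. The ligands left untested were Wnt2b, Wnt3, Wnt3a, Wnt8a, Wnt8b, Wnt10a and Wnt16, above background on no array, and Wnt7a and Wnt9b, above background on 1 young array each.

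**Figure D2:**
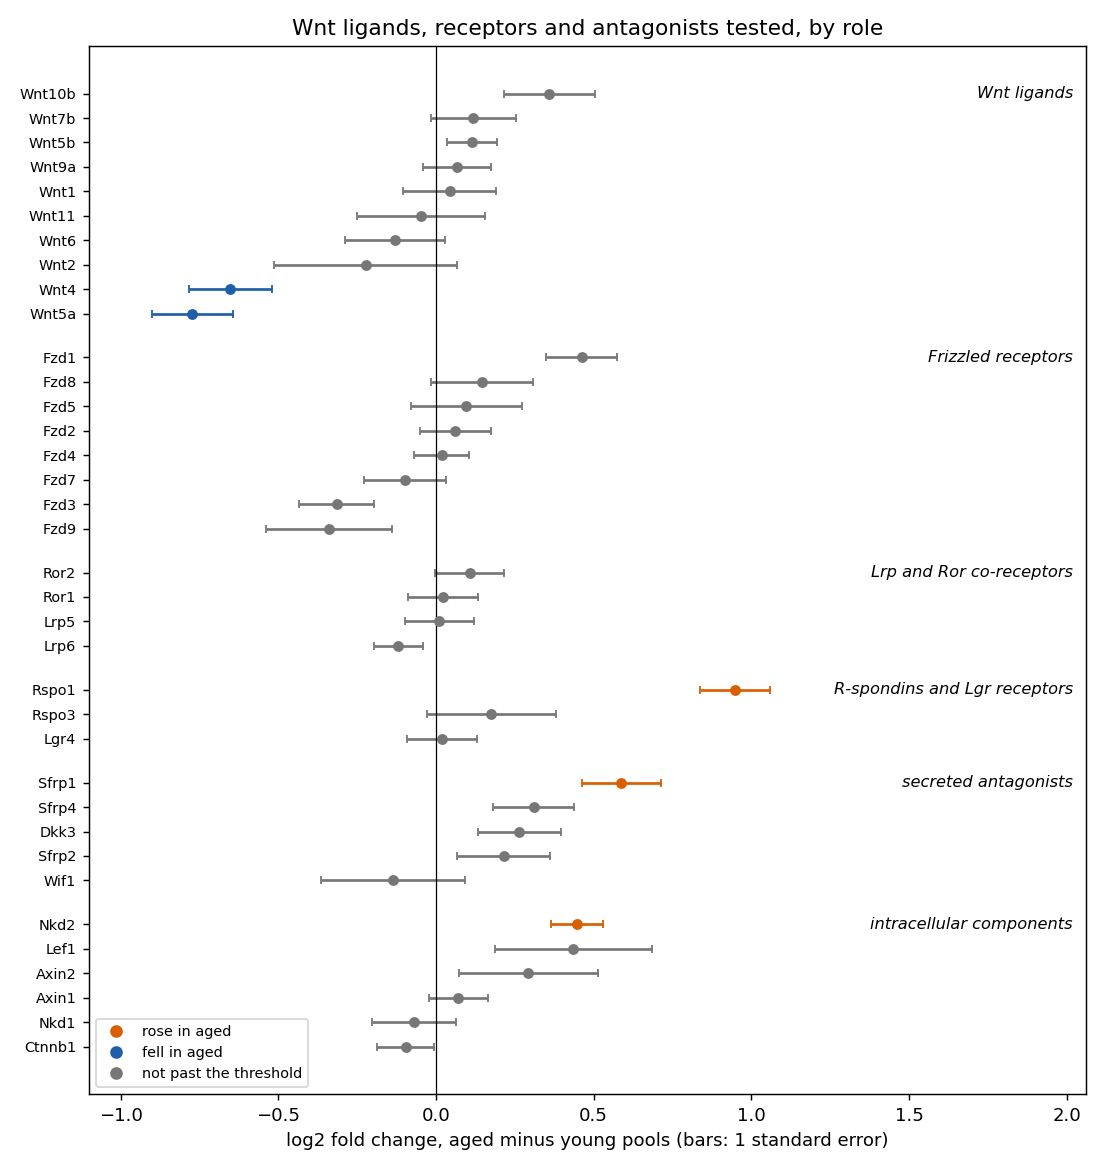
Log2 fold change, aged minus young pools, of the 36 Wnt genes tested, grouped by role. Points are fold changes and bars are 1 standard error, with genes that rose in orange, genes that fell in blue and the rest in grey. Rspo1 lies furthest to the right at 0.95 and Wnt5a furthest to the left at -0.77.

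Of 10 Frizzled genes, which encode the receptors that Wnts bind first, 8 were tested and none passed. Fzd1 came closest, with a mean of 2.73 ± 0.11 in aged pools and 2.26 ± 0.19 in young pools (SD, n = 4 each), a log2 fold change of 0.46 (SE 0.11, 95% interval 0.21 to 0.72, limma adjusted p = 0.069). Its 4 aged pools lay above its 4 young pools. Its adjusted p was 0.0284 with an intensity trend and robust variances and 0.0350 in the authors' normalised table. Fzd3, a receptor of axon guidance and planar polarity, had -0.32 (SE 0.12, adjusted p = 0.254) and Fzd9 had -0.34 (SE 0.20, adjusted p = 0.544). The remaining receptors Fzd2, Fzd4, Fzd5, Fzd7 and Fzd8 lay between -0.10 and 0.15. Fzd6 was above background on 3 young arrays and on no aged array, and Fzd10 on 1 array of each group, so neither was tested.

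All 4 co-receptor genes were tested and none passed, with log2 fold changes of -0.12 to 0.11. Lrp6 and Lrp5, the co-receptors of the beta-catenin branch, had -0.12 (SE 0.08, 95% interval -0.30 to 0.06) and 0.01 (SE 0.11, 95% interval -0.24 to 0.26). Ror2 and Ror1, receptor kinases that bind Wnt5a, had 0.11 (SE 0.11) and 0.02 (SE 0.11). The second, dimmer probe of Lrp6 gave -0.30, with all aged pools below all young pools on that probe, while the groups overlapped on the probe tested.

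Rspo1, an R-spondin, rose in the aged pools. Its signal was 2.92, 2.93, 2.82 and 2.89 in aged pools 1, 2, 3 and 4, against 2.10, 1.89, 1.65 and 2.11 in young pools 2, 3, 4 and 5. The aged pools were close together and far above the young pools, among which young pool 4 was lowest. The mean was 2.89 ± 0.05 in aged pools and 1.94 ± 0.21 in young pools (SD, n = 4 each), a log2 fold change of 0.95 (SE 0.11, 95% interval 0.70 to 1.20, limma adjusted p = 0.0034) or a 1.93-fold higher level. The difference was 0.91 in row 1 of the slide and 0.99 in row 2, and the adjusted p stayed between 0.0052 and 0.0167 when any single pool was left out. An exact two-sided permutation test of these 4 against 4 values gave p = 0.0286, the smallest that this design allows, and the same holds for the other 4 genes whose call is given here. Every gene whose groups do not overlap gets this value, 10.7% of all genes tested, so that it adds no support to the calls.

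Rspo1 was read by 1 probe at chr4:124686270-124686329 on mm9. The RefSeq promoter windows (250 bases before to 50 after an annotated start, GRCm38.p6) of the called genes in that table are shown so that motif matches can be read beside the fold changes, with matches in capitals. The motifs searched on both strands were the TCF/LEF site written as CTTTGAT or CTTTGAA, through which beta-catenin acts, and the NF-kB site. Of all 32851 promoter windows, 8.65% held a TCF/LEF match and 8.46% an NF-kB match. Of the 46 windows that matched 38 of the Wnt genes, 3 held a TCF/LEF match (Dkk1, Wnt11 and Wnt5b) and 5 an NF-kB match (Fzd5, Rspo1, Sfrp2, Wnt10b and Wnt16). The windows of Rspo1 (chr4:124986180-124986479, + strand), Nkd2 (chr13:73847582-73847881, - strand) and Wnt4 (chr4:137277385-137277684, + strand) read as follows.
Rspo1: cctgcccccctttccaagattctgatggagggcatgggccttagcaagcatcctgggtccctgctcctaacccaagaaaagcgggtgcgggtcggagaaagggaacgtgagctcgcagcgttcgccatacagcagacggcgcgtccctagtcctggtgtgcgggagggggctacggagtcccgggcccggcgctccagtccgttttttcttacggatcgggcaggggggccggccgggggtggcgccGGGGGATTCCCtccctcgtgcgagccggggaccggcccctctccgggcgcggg
Nkd2: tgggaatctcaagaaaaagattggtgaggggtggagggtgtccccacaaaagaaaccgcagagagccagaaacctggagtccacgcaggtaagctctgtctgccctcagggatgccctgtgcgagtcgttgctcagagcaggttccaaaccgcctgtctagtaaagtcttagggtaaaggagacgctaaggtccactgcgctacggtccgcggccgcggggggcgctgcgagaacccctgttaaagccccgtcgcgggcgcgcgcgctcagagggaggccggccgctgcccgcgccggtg
Wnt4: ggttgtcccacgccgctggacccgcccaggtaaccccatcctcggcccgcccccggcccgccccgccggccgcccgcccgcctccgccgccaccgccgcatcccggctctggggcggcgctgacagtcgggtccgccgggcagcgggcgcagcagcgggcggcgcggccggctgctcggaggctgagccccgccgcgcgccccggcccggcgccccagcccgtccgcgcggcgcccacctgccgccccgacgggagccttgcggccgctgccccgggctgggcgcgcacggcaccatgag
The Rspo1 window held overlapping NF-kB matches that begin 3 bases before the annotated start, and no TCF/LEF match. The windows of Nkd2 and Wnt4 held neither motif, which says only that these letters are not in these windows. Sfrp1 and Wnt5a were the other called genes.

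Rspo3, the other R-spondin tested, had a log2 fold change of 0.18 (SE 0.20, adjusted p = 0.830) and Lgr4, the R-spondin receptor of many tissues, had 0.02 (SE 0.11, 95% interval -0.23 to 0.27). The stem cell marker Lgr5 was above background on 2 aged arrays and on no young array, Lgr6 and Rspo2 on 1 young array each, and Rspo4 on none. Of the 3 tested genes of R-spondins and their receptors, Rspo1 was the one that passed.

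Of 9 secreted antagonists 5 were tested, and Sfrp1 rose. Sfrp1 binds Wnts through a domain like that of the Frizzled receptors. Its signal was 2.70, 2.37, 2.67 and 2.98 in aged pools 1, 2, 3 and 4, against 2.09, 2.12, 2.0 and 2.15 in young pools 2, 3, 4 and 5. The young pools were tight and the aged pools spread upward from them, with aged pool 4 highest and aged pool 2 closest to the young pools. The mean was 2.68 ± 0.25 in aged pools and 2.09 ± 0.07 in young pools (SD, n = 4 each), a log2 fold change of 0.59 (SE 0.13, 95% interval 0.30 to 0.87, limma adjusted p = 0.0443), or 1.5-fold. The probe lies at chr8:24559438-24559497 on mm9, and the difference was 0.70 in row 1 of the slide and 0.47 in row 2. The call sat at the threshold: adjusted p was 0.0636 to 0.117 when any pool other than aged pool 2 was left out, and 0.0695 and 0.0638 under quantile and cyclic loess normalisation.

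The other antagonists of this set had smaller differences. Frzb, a secreted antagonist outside the set, rose by more than Sfrp1 (0.76 against 0.59) and is described below. Sfrp4 had a log2 fold change of 0.31 (SE 0.13, limma adjusted p = 0.316) and Sfrp2 of 0.22 (SE 0.15, adjusted p = 0.635). Dkk3, a member of the Dickkopf family that does not act on Lrp5 and Lrp6 as Dkk1 does, gave 0.26 to 0.34 on its 3 probes (adjusted p = 0.436 for the one tested). Wif1, which binds Wnts directly, had -0.14 (SE 0.23, adjusted p = 0.890). Dkk1, Dkk2 and Dkk4 were above background on no array, and Sfrp5 on 3 arrays of each group.

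Of 7 intracellular genes 6 were tested, and Nkd2 rose. Nkd2 encodes Naked cuticle 2, a protein that binds Dishevelled and dampens Wnt signalling. Its signal was 2.93, 2.86, 2.98 and 3.06 in aged pools 1, 2, 3 and 4, against 2.61, 2.39, 2.46 and 2.58 in young pools 2, 3, 4 and 5. The mean was 2.96 ± 0.09 in aged pools and 2.51 ± 0.10 in young pools (SD, n = 4 each), a log2 fold change of 0.45 (SE 0.08, 95% interval 0.26 to 0.64, limma adjusted p = 0.0259) or 1.36-fold. The groups did not overlap, with a narrow gap between them. The second probe, at chr13:73957581-73957640 against chr13:73956776-73956835 for the probe tested, gave 0.84, 0.71, 0.78 and 0.54 in the aged pools and 0.02, -0.44, -0.02 and -0.29 in the young pools. Its difference was thus larger, at 0.90, and on both probes all aged pools lay above all young pools. The adjusted p of the tested probe was 0.0599 to 0.0877 without aged pool 1, 3 or 4 or young pool 3 or 4, 0.0947 with scaling to the median and 0.0586 in the authors' normalised table.

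**Figure D3:**
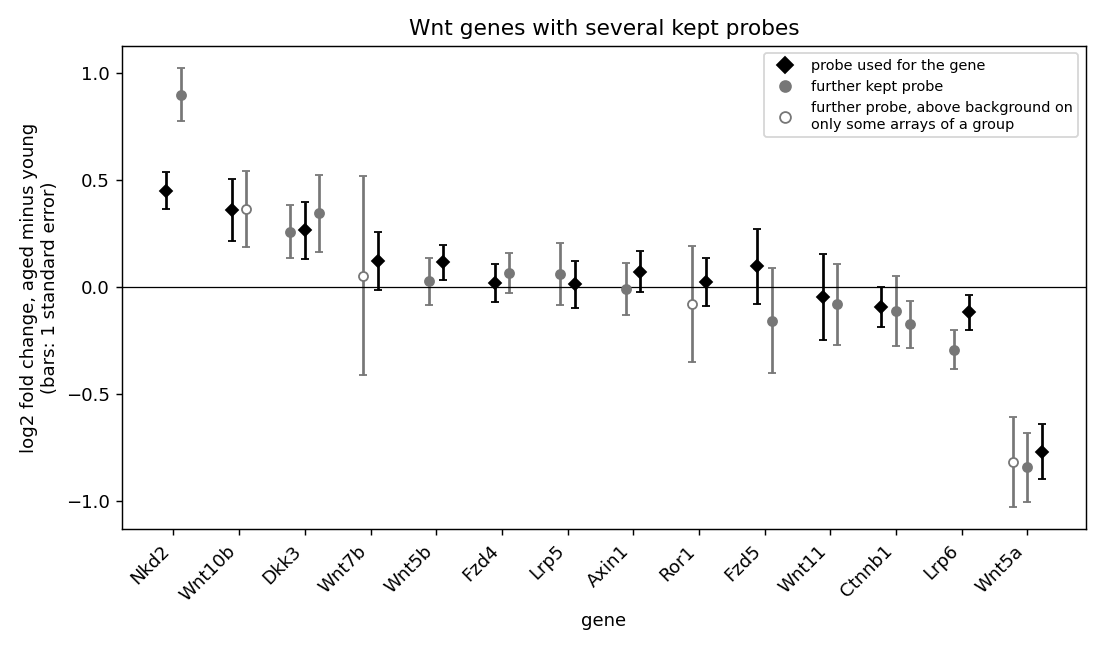
Log2 fold change, aged minus young pools, of each kept probe of the 14 Wnt genes with several kept probes. Diamonds are the probes used for the gene, circles are further probes and bars are 1 standard error. Open circles are further probes above background on only some arrays of a group. The pair of filled points for Wnt5a lies at -0.85 and -0.77, and the pair for Nkd2 at 0.45 and 0.90.

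Axin2, Lef1 and Nkd1, which are also known as targets of the beta-catenin branch, did not pass the test. Axin2, a scaffold of the destruction complex, had a log2 fold change of 0.29 (SE 0.22, 95% interval -0.21 to 0.80, limma adjusted p = 0.680). Lef1, a transcription factor that binds beta-catenin, had 0.44 (SE 0.25, adjusted p = 0.526), and Nkd1 had -0.07 (SE 0.13). Ctnnb1, which encodes beta-catenin, had -0.10 (SE 0.09, 95% interval -0.30 to 0.11) and Axin1 had 0.07 (SE 0.09). Tcf7 was above background on 1 young array and was not tested. For Axin2 and Lef1 the intervals were wide enough to hold changes as large as those called elsewhere.

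Where a Wnt gene had several kept probes, they mostly ran the same way. Of the 14 such genes, 11 had the same sign on all kept probes and 3 (Axin1, Fzd5 and Ror1) had both signs, with differences of -0.16 to 0.10. Of the kept probes, 4 (of Ror1, Wnt10b, Wnt5a and Wnt7b) were above background on only some arrays of a group, and over probes above background on all arrays 9 of 11 genes had 1 sign. Of the 88 probes, 53 were kept and 35 were too dim.

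Beyond these genes, 103 other genes of the Wnt pathway on the array were grouped by role, and 88 were tested. Of these 1 rose and 1 fell, 2.27% of those tested against 3.25% of all genes, and both belong to the secreted and membrane modulators. Frzb, a secreted antagonist related to Sfrp1, had a mean of 3.18 ± 0.10 in aged pools and 2.42 ± 0.18 in young pools, a log2 fold change of 0.76 (SE 0.11, limma adjusted p = 0.0073). Gpc3, a cell surface glypican that binds Wnts, had a mean of 0.47 ± 0.18 in aged pools and 1.29 ± 0.12 in young pools, a log2 fold change of -0.83 (SE 0.11, limma adjusted p = 0.0058). Both calls held when any single pool was left out.

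None of the other lists held a gene that passed. In the secretion list, Wls, which carries Wnts to the cell surface, had 0.20 and Porcn, which adds their lipid, 0.12. Among other co-receptors Lrp4 had 0.19 and Musk -0.11, and among Dishevelled and destruction complex genes the largest values were 0.28 for Dact1 and -0.23 for the kinase Gsk3b. Among nuclear partners of beta-catenin, the co-repressor Tle1 had -0.37 and Ctnnbip1 -0.24. Of the planar polarity and noncanonical genes, the formin-like Daam2 had -0.56 (SE 0.13, limma adjusted p = 0.0529) and Celsr2 0.31. Of 20 genes known as targets of the beta-catenin branch 14 were tested and none passed, while 5 of the 14 had an unadjusted p under 0.05, against 14.1% of all genes. The median of the 14 was 0.03 over values in both directions. Of the 5, Ccn5 (0.64, limma adjusted p = 0.168), Cd44 (0.53), Ccn4 (0.53) and Id2 (0.46) were higher in aged pools. Ephb2 (-0.61) was lower. Ccn5 had the highest value of the list and Prox1 the lowest, at -0.62 (limma adjusted p = 0.357). Prox1 was not among the 5, and its probe was above background on 3 of 4 aged arrays.

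**Figure D4:**
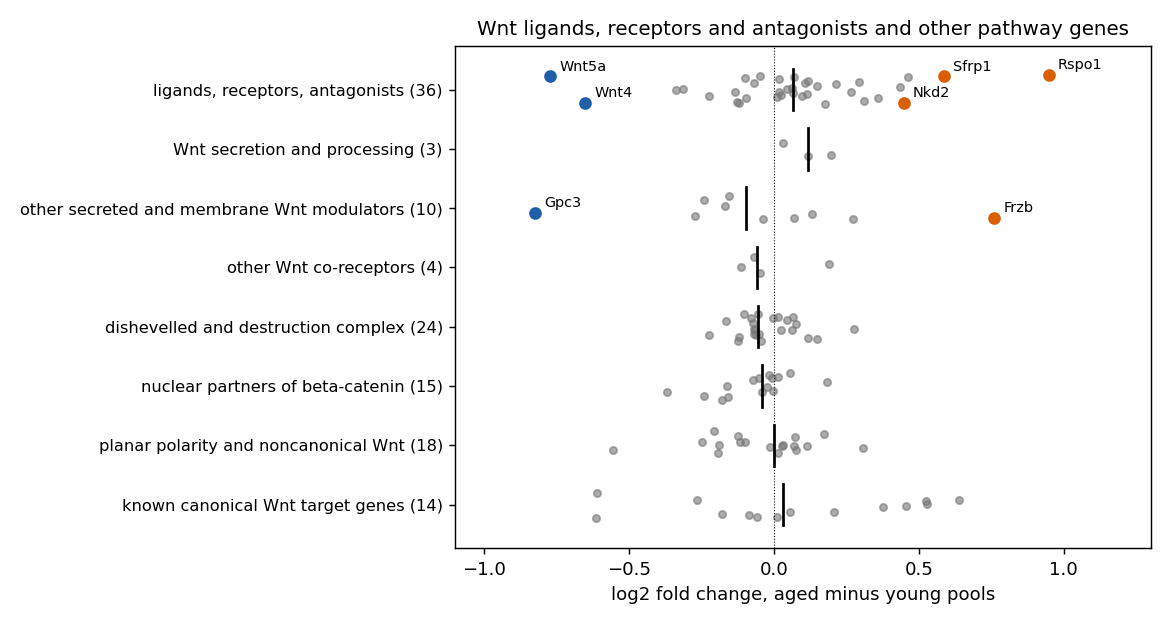
Log2 fold change, aged minus young pools, of the 36 Wnt genes tested and of the 88 other pathway genes tested, by list, with the number tested in brackets. Points are genes, black bars are medians and coloured points passed the test. Outside the top row, Frzb at 0.76 and Gpc3 at -0.83 are the coloured points.

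Genes that mark other cell types also differed between the same aged and young pools. Of 10 neutrophil genes 7 were tested and 3 rose (S100a9 by 4.33, with its probe above background on 3 of 4 young arrays, Ly6g by 0.74 and Camp by 0.70), and the summed linear signal of the list, in units of the 75th percentile, was 3.77 to 10.8 in aged pools and 1.95 to 2.80 in young pools. Of 10 mesothelial and epicardial genes 4 were tested and Dmkn rose by 3.98, with a sum of 1.17 to 1.69 in aged pools and 0.315 to 0.509 in young pools. Without Dmkn the sum was 0.223 to 0.788 in aged pools and 0.241 to 0.457 in young pools. Wt1 had 0.75, Msln -0.63 and Krt18 -0.24 without passing the test, while Upk3b, Upk1b, Krt19, Krt8, Krt7 and Lrrn4 did not pass the filter on dim probes. Msln and Krt18 were above background on 3 of 4 aged arrays and were kept through the young group, where they were higher. Of 14 cardiomyocyte genes 13 were tested and 2 fell (Pln by 0.90, with its probe above background on 2 of 4 aged arrays, and Tnni3 by 0.32), with a sum of 6.60 to 11.6 in aged pools and 12.1 to 15.01 in young pools. S100a9 was kept through the aged group and Pln through the young group, where each was higher. Neither difference thus adds support to the other genes of its list. The neutrophil and cardiomyocyte sums hold S100a9 and Pln, and no sums without them were taken, so these sums do not speak for the other genes alone. Of 5 Schwann cell genes tested Mbp rose by 1.72, and it alone had an unadjusted p under 0.05. The median of the 5 was 0.06 and the lowest value -0.17. Their sum, with Mbp in it, was 3.78 to 4.52 in aged pools and 2.73 to 3.09 in young pools, and no sum without Mbp was taken. None of the 10 endothelial, 9 leukocyte and 9 mural genes tested passed, and their sums overlapped between groups (23.5 to 37.6 in aged and 23.6 to 33.1 in young pools for the endothelial list). The part of these cell types in the differences of the Wnt genes was not tested.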

How the data were processed

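Total RNA of sorted cMSC pools was hybridised to Agilent SurePrint G3 Mouse GE v2 arrays (1 colour, Cy3), all 8 on 1 slide. Intensity values came from the deposited Feature Extraction files (version 10.10.1.1, per the submitters' processing notes), in which the authors' software had already subtracted background, and probe positions are on mm9, of which no gene annotation was used, so that exons and UTRs are not given. The authors' deposited log2 table (33363 probes, column medians of 8.12 on all arrays) served as an alternative. Its columns each correlated best with their own array.

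From the intensities, outlier-flagged spots were dropped, log2 of the processed signal was taken and the 75th percentile of each array was subtracted. A probe was kept where the well-above-background flag was set for all 4 pools of either age, and each gene took its brightest kept probe. The 20226 genes were fitted by lmFit and eBayes of limma (version 3.58.1, R version 4.3.3) without covariates, with Benjamini-Hochberg adjustment and a threshold of 0.05. Gene names are those of the array files, updated through RefSeq tables where these hold the probe's accession. The fit was tested on simulated data, drawn as independent normal values with set differences, which adds no support to the calls.

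The Wnt genes and all lists were chosen with earlier results of these data known. Values of every pool are given for Wnt genes that passed, and of each other pathway list the genes that passed or the 2 with the largest difference. In the list of known targets, the genes with an unadjusted p under 0.05 are also named. Young and aged pools share the numbers 2, 3 and 4, but were not treated as pairs. P-values measure the spread between pools. There were 14 alternative settings, and each pool was left out in turn. The number of arrays limits the precision.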

Additional observations from a re-analysis of the deposited data

Results flagged for a closer look

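In each of the 72 groups of 4 pools (36 Wnt genes, aged and young), the highest and the lowest pool were set against the other 3 by Dixon's test at its 95% critical value, and 4 stood apart. Chance alone would give about 5% of groups. Fzd7 was 0.19 in aged pool 4, with the other aged pools between -0.0034 and 0.02, and 0.53 in young pool 5, with the other young pools between -0.01 and 0.08. Lrp6 was 3.00 in aged pool 4, with the other aged pools between 3.15 and 3.18. Wnt1 was -0.75 in young pool 3, with the other young pools between -1.40 and -1.29. None of these 3 genes passed the test between groups.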

How the results depend on the processing

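The direction of the 5 called Wnt genes was the same under all alternatives run. The number of Wnt genes that rose (3) was 1 with no filter on dim probes, and the number that fell (2) was 0 there; with scaling to the median 1 fell, and with slide row as a block 1 fell. Deviations from the group means correlated at 0.18, -0.17 and -0.27 between pools of the same number. These pools also share a code, if that of aged pool 4 is read as that of young pool 4. The correlation was 0.14 between aged pool 1 and young pool 5, which share a code only. Between pools that share neither, it ran from -0.25 to 0.33. Pools with shared labels were thus not more alike than others, and these values cannot settle what the labels mean. With the pool number as a replicate block 0 rose and 0 fell, and with the pool code as a block 1 rose and 1 fell, Sfrp1, Nkd2 and Wnt4 losing their calls. The numbers 1 and 5 occur in 1 age group each. The fit by pool number thus compares only pools 2, 3 and 4 and leaves less data to estimate the spread. These blocks changed the calls of all genes as well, with 14 rising and 2 falling by pool number and 212 and 51 by pool code, against 497 and 160. Without single pools 1 to 3 rose and 1 to 2 fell. Rspo1 lost its call with the pool number as a block alone (limma adjusted p = 0.128), and Wnt5a there (0.178) and with no filter (0.0754). Of the other pathway genes 2 rose, in place of 1, with the mean of kept probes, with every kept probe tested and with slide row as a block. With the pool number as a block 0 rose and 0 fell, and with array quality weights 3 fell. Without single pools the counts were 1 and 1. Musk, at -0.11, turned to 0.012 with the pool number as a block. Over all genes, 202 rose and 43 fell with no filter, and 664 and 314 with array quality weights. The causes were not tested, other than that no filter adds genes to the adjustment (37325 in place of 20226). Signal near background limits the dim genes, of which Axin2, Fzd3, Fzd5 and Wnt7b were tested.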
